A study of Ceratitis capitata with 12 samples.

Results

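The transcripts described here are the 150, of 13479 with enough abundance to be compared, whose lowest abdomen (Ab) value was more than 2-fold above the highest head/thorax (HT) value in adult male medflies, with an offset of 20 added to both. The flies (Ceratitis capitata, Toliman wild-type strain) were compared by mRNA-seq after 60 generations of selection on divergent larval diets. The 4 groups were the Ab of 3 Starch lines, the Ab of 3 ASG lines, and the HT of the same 3 Starch lines and 3 ASG lines, with 3 samples each and 12 in all. The Starch larval diet is starch-based and gives 291 kcal/L, whereas the ASG diet is sucrose-based and gives 684 kcal/L. Before sampling, all lines had spent 2 generations on a shared glucose larval medium, and the males were 7 days past eclosion and contributed RNA as pools of 17 to 22 individuals, so that each sample is a line and not a single fly.

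The members were chosen by their deposited Ab and HT values. Abundances of the 12 samples were joined on the transcript record, with an unlisted record set to 0, and records summing to less than 100 were left out. For each remaining record the log2 offset fold change (OFC) was taken between the nearest bounds of both body parts, as the lowest of the 6 Ab samples plus 20 over the highest of the 6 HT samples plus 20, and members had a log2 OFC above 1. This gave 150 of 13479 transcripts (20149 before the minimum sum). They are not 150 measurements. Many records carry the same 12 values, and the 13479 transcripts hold 145 distinct sets of values, of which 3 sets, or 2.07%, make up the members. These are called stretch A (70 transcripts), stretch B (79 transcripts) and LOC101462518, the single transcript with a set of its own. What was counted into a shared set is not stated, so its level cannot be assigned to any one of its genes, nor to all of them together. A stretch is thus a name for records with equal values. Whether a value was measured on the record it is listed beside could not be settled from the sources used here, for LOC101462518 as for the stretches. The study's own tables differ from the deposited values for some member records. They list LOC101462518 in HT too, and they list chymotrypsin-1-like records of Ab with the other direction between diets. A gene name therefore stands below only for the deposited row that carries it. All 3 sets passed the minimum sum, stretch A and LOC101462518 through Ab alone.

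The abdomen of a male fly holds the midgut, most of the fat body, the Malpighian tubules, the testes and the male accessory glands, while head and thorax hold the eyes, the brain and the flight muscles. The midgut secretes digestive serine proteases such as chymotrypsins and trypsins, which cut dietary protein, and the testes and accessory glands make sperm and seminal fluid. In RNA from whole body parts, more cells of a type and more RNA per cell cannot be told apart. The labelled body parts could not be checked against marker genes here, because most listed genes have no product name in the sources used and listed levels are shared between genes.

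Stretch A covered 41 genes that could be matched to the Ccap_2.1 gene table of RefSeq, and stretch B covered 31, while 17 and 23 of their transcripts had no match. Of the 73 member genes with a match, 2 had a product name other than uncharacterized in the sources used here. They are LOC101453897 and LOC101454073 in stretch B, both predicted as chymotrypsin-1-like, a class of digestive serine proteases. Names were available only for genes in the study's own tables, which list transcripts it called different between diets. These 2 names therefore do not describe the stretch as a whole. LOC101462518 is annotated as uncharacterized, and the other 70 are known here by their locus names only. In stretch A, 35 genes had 1 listed transcript and 6 had more, up to 5. In stretch B, 22 genes had 1 listed transcript and 9 had more, up to 12.

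The genes of a stretch lay in blocks of neighbours. In the order of the gene table, stretch A formed a block of 11 genes running from LOC101460264 to LOC101461343, and another of 30 genes running from LOC101449950 to LOC101460087. Stretch B formed blocks of 13 genes (LOC101452807 to LOC101453545), 3 genes (LOC105664465 to LOC101452453) and 15 genes (LOC101449379 to LOC101452088). Inside the 5 blocks, 0 genes with a listed transcript lacked the values of the stretch, and the 19 other genes there had no listed transcript. Whether a gene there held a further set as well was not counted. By accession number of the records, stretch A fell into 4 uninterrupted runs with up to 47 records, and stretch B into 5 with up to 41. These runs were not matched to the blocks. In the short gaps between runs stood 2 records in A and 3 in B, which belonged to 1 other set in each case.

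The nearest listed genes on each side of the 5 blocks and of LOC101462518 were 12 genes, of which 8 passed the minimum sum. LOC101460002 and LOC101455658 among them carry identical values, so these are not 12 measurements. They are not members by the way blocks were drawn, so their values describe what lies beside a block and do not test its edge. Next to the larger block of stretch A, LOC101453152 was listed at 1249 ± 76.6 in Ab and 903 ± 62.6 in HT (SD, n = 6 each). These values are those of a set shared by 142 genes and 313 transcripts, so they cannot be assigned to LOC101453152. Before the block of stretch B that begins at LOC101449379, LOC101455537 was listed at 467 ± 114 in Ab and 1599 ± 291 in HT (SD, n = 6 each). The listed gene before LOC101462518, LOC101460318, ranged from 48 to 957 in Ab and from 95 to 403 in HT, so that both body parts overlapped. The neighbours named here were chosen after their values were seen, and scaffold ends were not taken into account.

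**Figure D1:**
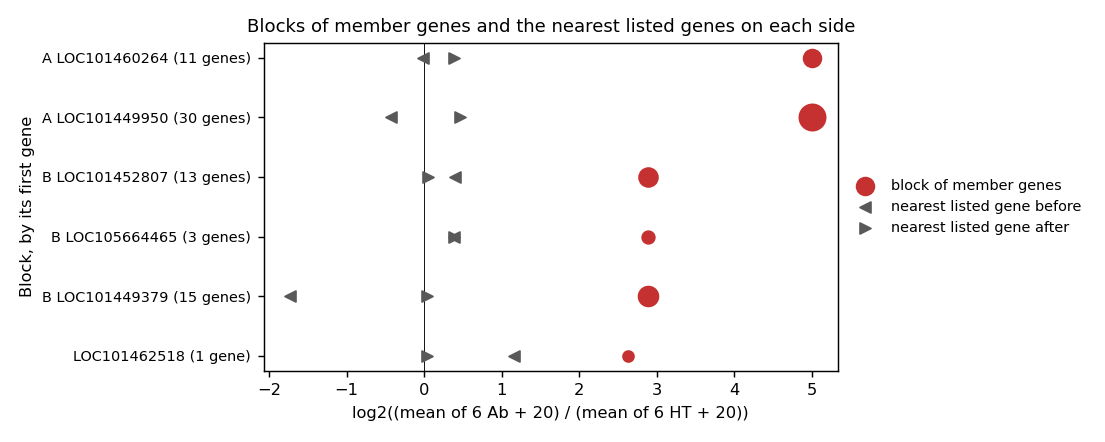
Log2 ratio of the mean abundance in 6 Ab samples over that in 6 HT samples, each with an offset of 20, for the 6 blocks of member genes (circles, larger with more genes) and for the nearest listed gene before and after each block (triangles). The blocks, which the rule chose, lie at 2.63 or above, and the 12 neighbouring genes, which are not members by construction, lie between -1.73 and 1.16.

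Stretch A was close to absent from HT. Its abundance was 696, 661 and 807 in Starch Ab and 482, 773 and 481 in ASG Ab, against 2, 1 and 0 in Starch HT and 3, 0 and 0 in ASG HT. Every Ab sample was at least 481 and no HT sample exceeded 3. The sums of 3900 in Ab and 6 in HT have a ratio of 650.0, with an exact 95% interval of 298 to 1772. This interval covers counting error only and takes the values as raw counts. It is no test of the contrast, which chose the members. The log2 OFC was 4.45.

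Stretch B, which includes both chymotrypsin-1-like genes, was listed in HT as well. It was 4430, 5550 and 5051 in Starch Ab and 3216, 4292 and 3554 in ASG Ab, against 602, 520 and 498 in Starch HT and 579, 594 and 624 in ASG HT. The body parts were far apart, with the lowest Ab sample at 3216 and the highest HT sample at 624. The sums of 26093 in Ab and 3417 in HT have a ratio of 7.64 (exact 95% interval 7.37 to 7.92, counting error only), and the log2 OFC was 2.33. Whether the HT level comes from any one of the 31 genes cannot be read from a shared value. Stretch B took between 6.60% and 9.50% of the abundance summed over the distinct sets in the Ab samples, and between 0.89% and 1.11% in HT. These sums count each shared value once and are not the sequencing depth. The shares here and below are thus not fractions of a library or of all transcripts.

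In the deposited values, LOC101462518 was listed in Ab alone. It was listed at 57, 85 and 71 in Starch Ab and at 100, 147 and 162 in ASG Ab, against 0 in all 6 HT samples. Its sum of 622 in Ab over an assumed floor of 3 counts in the 6 HT samples gives a ratio of 207. The values of 0 in HT are unlisted records, so this ratio describes the deposited row and is no lower bound for the gene. Its log2 OFC was 1.94 with the offset of 20 and depended on the offset, with 5.86 at an offset of 1, 2.74 at 10 and 1.10 at 50. It was thus above that of stretch B at offsets of 1 and 10 and below it at 20 and 50, since stretch B stayed between 2.28 and 2.36. Since the contrast of body parts chose the members, none of these differences was tested.

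Within a diet, the log2 OFC between 3 Ab and 3 HT samples can only be equal to or above that over all 12 samples, so the values that follow describe its size and are no check of the rule. The log2 OFC of stretch A was 4.95 in the Starch lines and 4.45 in the ASG lines. That of stretch B was 2.84 in the Starch lines and 2.33 in the ASG lines. LOC101462518 had the other order, with 1.94 in the Starch lines and 2.58 in the ASG lines.

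**Figure D2:**
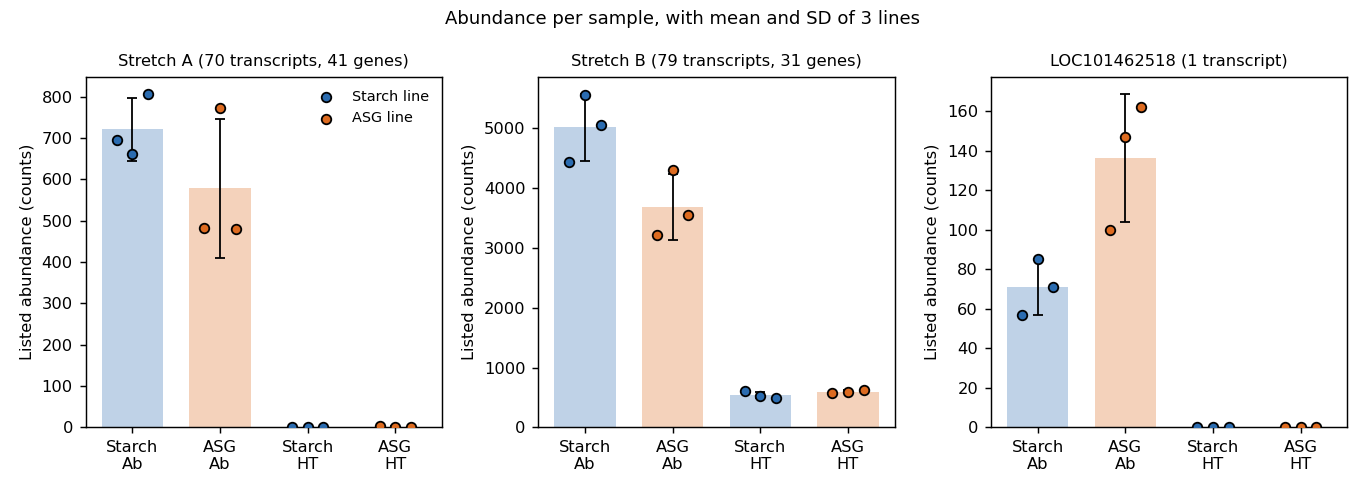
Listed abundance of stretch A, stretch B and LOC101462518 in each of the 12 samples, by diet and body part. Points are lines, bars are the mean of 3 lines and error bars are the SD. In all panels every Ab sample lies above every HT sample, and in the panel of LOC101462518 the 3 ASG Ab samples (100 to 162) lie above the 3 Starch Ab samples (57 to 85).

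The members were set apart from the remaining values. Just inside the threshold was LOC101462518, at 1.94, and just outside it was the set that begins with LOC101463330 (6 transcripts), with a log2 OFC of 0.55 and 141 ± 21.7 in Ab against 57.5 ± 12.2 in HT (SD, n = 6 each). It was followed by the set of LOC101458320 (12 transcripts), with a log2 OFC of 0.54 and 401 ± 40.3 in Ab against 196 ± 32.3 in HT. No set lay between 0.55 and 1.94. These sets were also most like the members across the 12 samples, with Pearson's r of the log2 abundance (offset of 20) at 0.94 for LOC101458320 with stretch A, 0.95 for LOC101458320 with stretch B and 0.96 for LOC101463330 with LOC101462518. These r are a description over 12 samples of 6 lines, and all of these sets have higher means in Ab. They include the step between HT and Ab by which the members were chosen. Any set higher in Ab is favoured by that, so they show no further likeness.

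**Figure D3:**
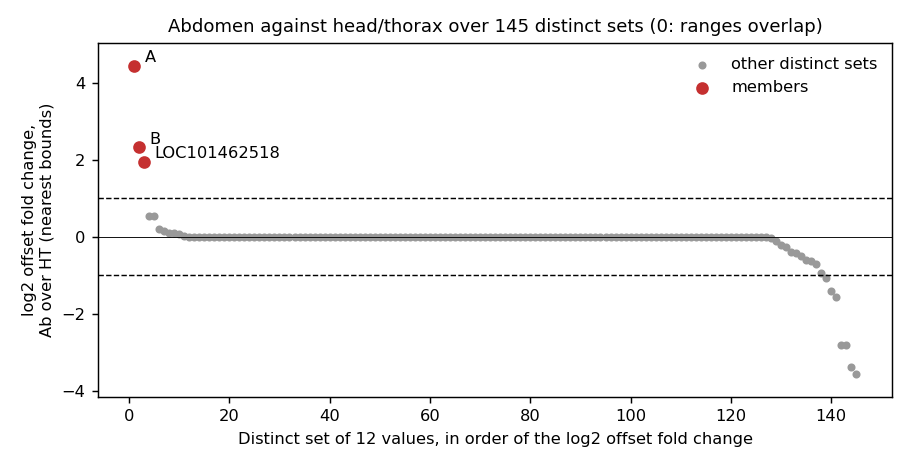
Log2 OFC between Ab and HT for the 145 distinct sets, from the largest towards Ab to the largest towards HT. Values at 0 are sets whose ranges overlap and dashed lines mark the threshold of 1 in both directions. The 3 members stand above the threshold at 4.45, 2.33 and 1.94, and the next set is at 0.55.

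The rule did not use the diets, so members could be compared between regimes, which asks whether their abdominal abundance differed with the larval diet of the lines' history. Each of the 145 distinct sets entered edgeR's quasi-likelihood test once, in the 6 Ab samples, and p values were adjusted over all 145 (Benjamini-Hochberg). The library size in this test was the sum over these sets, scaled by TMM, and not the sequencing depth. None of the 3 members passed the adjusted threshold of 0.05 in edgeR, 1 had an unadjusted p under 0.05 (9.66% of all sets had), and 1 passed in DESeq2 and 0 in limma. Over all sets 1, or 0.69%, passed in edgeR, 10, or 6.9%, in DESeq2 and 1, or 0.69%, in limma. By the range rule, with a log2 OFC above 1 between diets, 0 of the 3 members were called in Ab.

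The row listed as LOC101462518 was lower in all 3 Starch Ab samples than in any ASG Ab sample, with the limit given above on which record its values belong to. It averaged 71.0 ± 14.0 in Starch Ab and 136 ± 32.3 in ASG Ab (SD, n = 3 each), with a log2 fold change of -1.09 ± 0.22 (SE). The adjusted p was 0.0565 in edgeR (unadjusted 0.00156), which misses the threshold, and it was 0.00431 in DESeq2. Without ASG replicate 2 it was 0.0222 in edgeR, and it was 0.211 without ASG replicate 3. The exact permutation test of the 3 and 3 samples gave p = 0.1, the smallest it can give. Ranges without overlap occurred in 17.9% of the 145 sets in either direction, and in 2.76% with the higher values in ASG.

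Stretch B went the other way. It averaged 5010 ± 561 in Starch Ab and 3687 ± 550 in ASG Ab (SD, n = 3 each), and the lowest Starch line (4430) was above the highest ASG line (4292). The exact permutation p was 0.1, again the smallest possible with 3 and 3 samples. Ranges without overlap and higher in Starch occurred in 15.2% of the sets. The log2 fold change in edgeR was 0.26 ± 0.20 (SE), with an adjusted p of 0.669. With equal library sizes in edgeR it was 0.44, with an adjusted p of 0.222 (unadjusted 0.0138).

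The separation of stretch B depended on scale, a comparison added after seeing the data. The abundances of the distinct sets summed to between 58431 and 63282 in Starch Ab and to between 45837 and 55958 in ASG Ab, with the lowest sum in ASG Ab replicate 1. As a share of these sums, stretch B was 7.31%, 9.50% and 7.98% in Starch Ab and 7.02%, 7.67% and 6.60% in ASG Ab, and the diets overlapped. LOC101462518 was 0.094%, 0.146% and 0.112% in Starch Ab and 0.218%, 0.263% and 0.301% in ASG Ab, and the diets did not overlap. Over all sets, the median log2 difference between diets in Ab was 0.082 as deposited and -0.055 after TMM scaling, and with shares 6.21% of the sets were higher in Starch without overlap and 13.8% higher in ASG.

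Stretch A did not separate the diets on either scale. It averaged 721 ± 76.2 in Starch Ab and 579 ± 168 in ASG Ab (SD, n = 3 each), with a log2 fold change of 0.12 ± 0.22 (SE) and an adjusted p of 0.871 in edgeR. The exact permutation p was 0.3. ASG replicate 2, at 773, lay within the range of the Starch lines, whereas ASG replicates 1 and 3 were both lower, at 482 and 481.

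**Figure D4:**
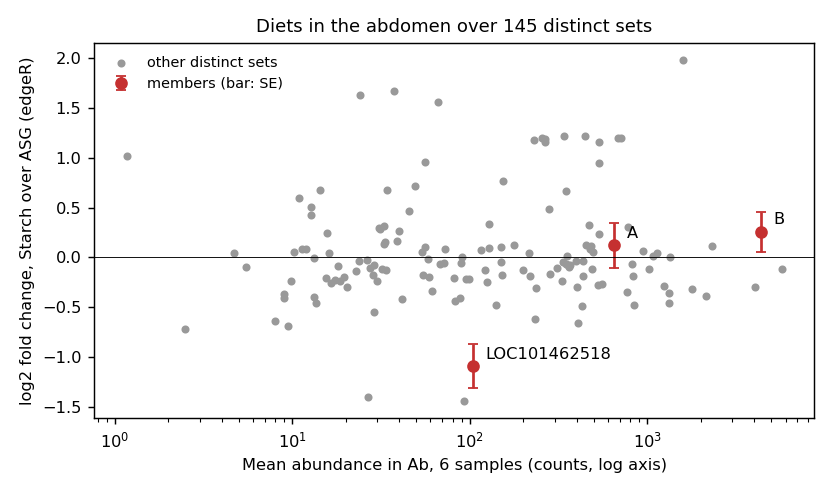
Log2 fold change of Starch over ASG in Ab (edgeR) against the mean abundance in the 6 Ab samples on a log axis, for 145 distinct sets. The members are shown with their SE: stretch A at 0.12, stretch B at 0.26 and LOC101462518 at -1.09, where a negative value is lower in Starch.

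In HT the diets could be compared for stretch B alone, because stretch A and LOC101462518 were at or under 3 counts in every sample. Stretch B averaged 540.0 ± 54.8 in Starch HT and 599 ± 22.9 in ASG HT (SD, n = 3 each), and the ranges overlapped, while 6.21% of the sets did not overlap in HT (3.45% higher in ASG). The log2 fold change was -0.12 ± 0.18 (SE) with an adjusted p of 0.949 in edgeR, in a test that 2.07% of the sets passed and in which 9.66% had an unadjusted p under 0.05. The interaction of diet and body part, over all 12 samples, was 0.29 ± 0.26 (SE) for stretch B, with an adjusted p of 0.784 in edgeR. It depended on the scaling, with 0.59 at equal library sizes in edgeR and 0.60 and 0.59 in limma, and over all alternatives it ranged from 0.13 to 0.60 with an adjusted p of at least 0.573. The unadjusted p was 0.28 in the main edgeR fit. It was 0.00791 with equal library sizes and 0.035 without TMM in edgeR, 0.00948 and 0.0099 in limma, and 0.166 or above in the remaining fits. The interaction passed for 0 of the 145 sets in edgeR (10, or 6.9%, at an unadjusted p under 0.05), and for 0 in DESeq2 and limma.

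Within single lines, stretch B was 7.36, 10.7 and 10.1 times as abundant in Ab as in HT in Starch replicates 1 to 3, and 5.55, 7.23 and 5.70 times in ASG replicates 1 to 3. The Starch lines were thus all above the ASG lines, by a narrow margin of 7.36 against 7.23. With an offset of 20, the same absence of overlap towards Starch held for 8.28% of the sets.

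The spread of the lines in Ab was described with and without the difference between diets. The coefficient of variation over the 6 Ab samples was 21.6% for stretch A, 20.2% for stretch B and 40.7% for LOC101462518, beside a median of 24.2% over the 145 sets. Within a diet it was 10.6% in Starch Ab and 29.1% in ASG Ab for stretch A, and 11.2% in Starch Ab and 14.9% in ASG Ab for stretch B. For LOC101462518 it was 19.7% in Starch Ab and 23.7% in ASG Ab, so that its value over both diets includes the gap between them. The highest line was 1.68 times the lowest in stretch A, 1.73 times in stretch B and 2.84 times for LOC101462518. The lines did not keep one order: the highest was Starch replicate 3 in stretch A, Starch replicate 2 in stretch B and ASG replicate 3 for LOC101462518. Of the ASG lines, replicate 2 was highest in stretch A and stretch B but not for LOC101462518.

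**Figure D5:**
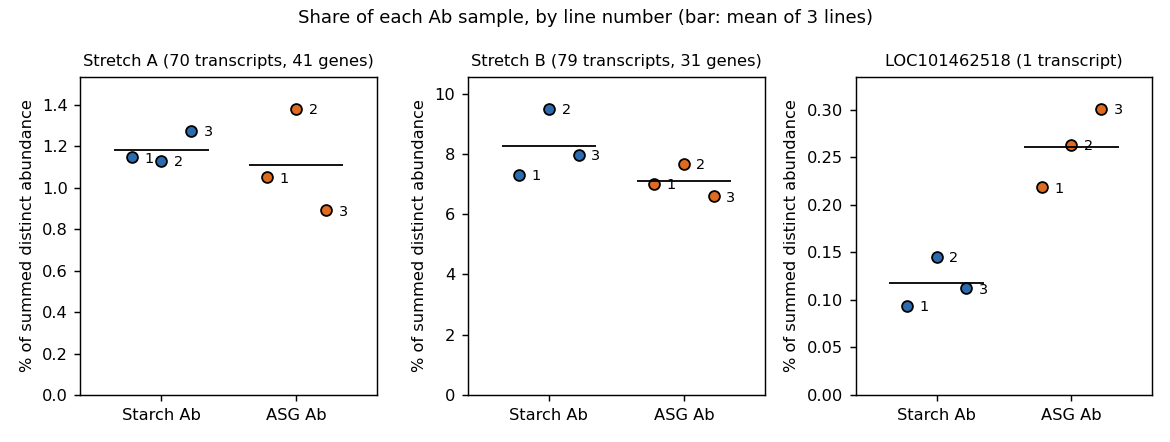
Abundance of each member as a percentage of the abundance summed over the distinct sets, in the 3 Starch Ab and 3 ASG Ab samples, labelled by line number, with bars for the mean. The diets overlap for stretch A and stretch B, and LOC101462518 is at 0.094% to 0.146% in Starch Ab and at 0.218% to 0.301% in ASG Ab.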

How the data were processed

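Libraries of polyA-selected mRNA from 12 samples were read in single-end mode. According to the methods, reads from rRNA were taken out, libraries were brought to a common size by subsampling, and reads were aligned without gaps and with at most 1 mismatch by PaTMaN to curated NCBI transcripts, after which the abundances of incident reads were added up and quantile-normalised. Every deposited abundance is a whole number, so the values entered the tests as counts. Whether they were deposited before or after the normalisation is not given in the sources used here. As listed, their totals over all records differed between samples, from 7405498 to 10941269. They thus do not have the equal distributions of quantile-normalised values. Per sample, 15177 to 17630 records were listed, and the distinct sets summed to 45837 to 65028. Intervals cover counting error only, take the values as raw counts and leave the sums unscaled. Which sequencing lane held which sample is not given in the sources used here.

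Records were grouped by identical values in the 12 samples, and each distinct set with a sum of 100 or more was 1 row. Tests used edgeR 4.0.16 (TMM, quasi-likelihood, SE derived from its F statistic) in R 4.3.3, with limma 3.58.1 and DESeq2 1.42.0 as alternatives, at an adjusted p of 0.05. Tables and figures were made in Python 3.11.15 with SciPy 1.17.1, NumPy 2.4.6, matplotlib 3.10.9 and pandas 2.3.3, and the test between diets in Ab was first run on simulated counts with known changes. That run gave all rows the same dispersion and drew them independently. It checks the code and does not show how the test behaves on these data. Lines are separate populations, so p values within a body part measure the spread between lines. The main interaction test took the 12 samples as separate and left out the pairing of HT and Ab within a line. Its fit with each line as a block is given below.

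Transcripts were matched to the RefSeq gene table of Ccap_2.1 without version numbers (15697 of 20149, 1294 in the same version), which was used for names and gene order only, since the authors aligned to another release. Blocks were allowed up to 20 genes between members. Product names came from the study's tables, which list transcripts that the study called different between diets. Named genes were all genes of a set with 10 or fewer, those with a product name in a larger set, and the first genes of sets next to the threshold or most alike. Lists of gene functions and body part markers by product name could not be applied, since 70 of 73 member genes have no product name here. Sequences were not analysed here.

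The members and lists were chosen with earlier results of these data known. HT and Ab of a line were cut from males of the same line, and whether both pools held exactly the same individuals is not stated. The deviations of HT and Ab from group means correlated at -0.041, 0.22 and -0.17 in the Starch lines and at 0.72, 0.76 and 0.51 in the ASG lines. Same-numbered Starch and ASG samples of a body part shared a sequencing index, per the methods, and no source used here ties them to a common animal, litter or day.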

Additional observations from a re-analysis of the deposited data

How the results depend on the processing

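The same 3 sets (150 transcripts) were called higher in Ab with offsets of 1, 10 and 50, no minimum sum, equal totals, quantile normalisation, either diet alone and each line left out (3 to 3 sets). With fewer samples a member cannot lose its call, so the last 2 show only that no set was added. A minimum sum of 1000 removes LOC101462518 by construction and left 2. Group means, which ignore the replicate spread, called 15 sets with 2251 transcripts, the 3 members among them.

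The diets did not overlap in Ab for 2 members as deposited and for 1 with shares of the summed abundance, an alternative chosen after seeing the data. In Ab, the edgeR count of members passing between diets was 0 and became 1 (LOC101462518) in DESeq2, and 0 to 1 with a line left out (1 without ASG replicate 2); the cause was not tested. The adjusted p of LOC101462518 ranged from 0.00431 to 0.253 and its log2 fold change from -1.32 to -0.77. That of stretch B ranged from 0.11 to 0.45, and its unadjusted p was 0.0138 with equal library sizes in edgeR and 0.0107 and 0.0108 in limma. With a line left out, that of stretch A ranged from -0.075 (without ASG replicate 3) to 0.34, against 0.12 with all lines, and that of stretch B in HT from -0.23 to 0.043 (without ASG replicate 1), against -0.12 with all lines; the cause was not tested. Over all 145 sets, the 1 call in Ab became 10 in DESeq2, 2 with all 12 samples in one fit, 0 with every transcript as a row, and 0 to 17 with a line left out. The 3 calls in HT became 5 in DESeq2, 1 in limma, with equal library sizes, without TMM or with a minimum sum of 1000, and 0 to 2 with a line left out.

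With the replicate block, members passing stayed at 0 in Ab, HT and the interaction. The log2 fold change in Ab was 0.16 for stretch A, 0.26 for stretch B and -1.11 for LOC101462518 (adjusted p of 0.107 in edgeR), that of stretch B was -0.11 in HT, and its interaction with each line as a block was 0.28. Same-numbered lines of the diets correlated at 0.39, -0.044 and 0.025 in Ab and at -0.64, -0.34 and -0.38 in HT. The block gave 1 call in Ab and 0 in HT over all sets. The range rule called 0 members between diets in either body part under each alternative run. LOC101462518 rests on 57 to 162 counts per Ab sample.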
